A study of Brassica rapa with 6 samples.

Results

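Plants take up iron, zinc, copper and manganese as ions that are both needed and toxic, and keep them bound or compartmentalised at every step. Chelators such as nicotianamine carry them between tissues, transporters of the YSL, Nramp, ZIP and COPT families and vacuolar iron transporters move them across membranes, and metallothioneins and ferritins hold them inside cells. In leaves much of the iron and copper serves photosynthetic electron transport in the chloroplast, whereas the petiole carries the veins that link the blade to the stem. The loci described here were chosen by annotation: every locus of the deposited table with a single gene name whose description holds the words zinc transporter, copper transporter, metal transporter, iron transport, heavy metal-associated, metal tolerance protein, nicotianamine, ferritin, metallothionein or vacuolar iron. They numbered 130 of 49200 loci.

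RNA was sequenced from petioles (3 libraries) and leaves (3 libraries) of mature baby Chinese cabbage (Brassica rapa). Both tissues came from an inbred line without treatment, and the study set them side by side to describe genes active in leaf and petiole development. Libraries carry the numbers 1 to 3 within a tissue, and nothing in the labels tells whether separate plants stand behind them. The p-values therefore cover only the spread among these libraries, part or all of which may be technical.

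The deposited estimated counts, in which about 3.76 units stand for 1 fragment, summed to 120805715 to 132861243 units in petiole and 111518411 to 121161682 units in leaf. The metal-handling loci took 0.124 to 0.134% of them in petiole and 0.138 to 0.142% in leaf. The most abundant locus of a library took 3.32 to 3.49% of the counts in petiole and 9.05 to 12.5% in leaf. Markers set the tissues apart. The 29 mesophyll marker loci (chlorophyll a-b binding proteins and Rubisco small chains) summed to 368 to 402 CPM (counts scaled to library size with TMM factors) in petiole and to 4274 to 4659 CPM in leaf. The 8 xylem marker loci (secondary-wall cellulose synthases and XCP proteases, 1 of them at 0 in every library) summed to 125 to 144 CPM in petiole and 48.0 to 55.1 CPM in leaf. The 5 phloem marker loci summed to 146 to 150 CPM in petiole and 219 to 240 CPM in leaf, and the 5 epidermal ones to 95.1 to 104.5 CPM in petiole and 64.2 to 74.4 CPM in leaf. Among the tested marker loci, 25 of 26 mesophyll loci were lower in petiole, 6 of 6 xylem loci were higher, 3 of 5 phloem loci were lower and 2 higher, and 3 of 5 epidermal loci were higher and 2 lower. The part of these cell types in any difference given here was not tested, and in whole tissue fewer cells of a type and less RNA per cell cannot be told apart.

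Metal-handling loci differed between the tissues about as often as other loci, and in both directions. Of the 130 loci, 78 had enough counts to be tested, 39 were at 0 in all libraries (30.0%, against 26.9% of all loci) and 13 had too few counts. By edgeR's quasi-likelihood test, with p-values adjusted by Benjamini-Hochberg over the 31473 loci with enough counts, and called under 0.05, 25 were higher in petiole, 26 were lower and 27 did not pass. Those 51 were 65.4% of the tested metal-handling loci, against 62.6% of all tested loci (31.5% higher and 31.1% lower in petiole). The median log2 fold change, petiole over leaf, was -0.03 for the metal-handling loci and 0.01 for all loci. A difference of at least 2-fold was called at 31 of the 78 loci (39.7%), 16 higher and 15 lower in petiole, against 34.5% of all loci. The 3 petiole libraries did not overlap the 3 leaf libraries in CPM at 62 of the 78 loci (79.5%), against 71.3% of all loci. These tests ran on the deposited units. On counts divided by the units per fragment, 68 metal-handling loci and 28793 of all loci had enough counts. There 76.5% and 69.2% of them were called.

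Direction depended on the scale. On the deposited FPKM (fragments scaled to locus length and library depth) the median of all loci lay 0.47 higher in petiole on the log2(FPKM + 1) scale, and limma called 49 metal-handling loci higher and 11 lower, beside 18478 higher and 5078 lower of all loci. With log2(FPKM + 0.1) that median was 0.70, as the added constant shrinks differences at loci with low FPKM. Abundant loci thus carry a larger shift than 0.47. The deposited FPKM values summed to 749018 to 775927 per library in petiole and to 455196 to 502983 in leaf. Once each library's FPKM were rescaled to the same sum (TPM), limma called 31 metal-handling loci higher and 22 lower in petiole. Of the 26 loci lower in petiole by edgeR, 10 had a positive sign on FPKM and 0 on TPM, and the 25 higher ones had the same sign on all of these scales. Differences are therefore given from edgeR, and a locus whose sign turned on FPKM is named as such. FPKM serves to rank loci within a tissue and to give each locus's share of its family, and where an FPKM level or difference is set across the tissues it carries this shift.

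**Figure D1:**
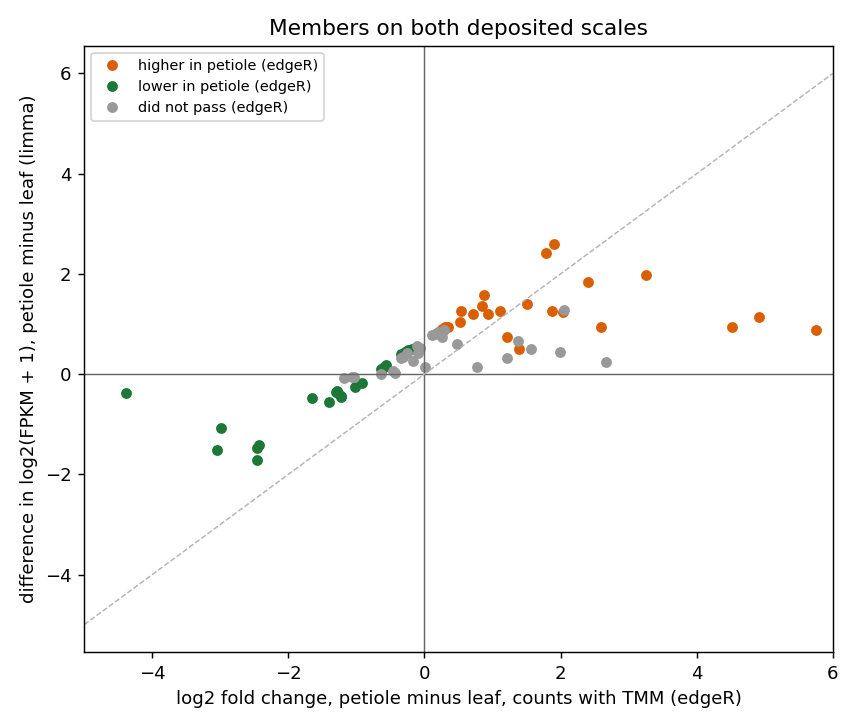
Each point is a tested metal-handling locus. The horizontal axis is edgeR's log2 fold change, petiole minus leaf, from counts with TMM scaling, and the vertical axis is limma's difference on the deposited log2(FPKM + 1), with the dashed line marking equal values and the colours edgeR's call. Green points above the horizontal line are the 10 loci lower in petiole by edgeR whose sign was positive on FPKM.

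The calls are given by family, as in the plot of fold changes by family, and the difference between families was not tested. Over all tested loci 31.5% were higher and 31.1% lower in petiole, and most families had calls in both directions. Heavy metal-associated isoprenylated plant proteins (HIPP) had 9 of 20 tested loci higher in petiole and 4 lower, with a median log2 fold change of 1.02, or 0.93 with loci at 0 in one tissue set at their bound. Vacuolar iron transporters had 2 of 3 higher. Zinc transporters had 4 of 13 higher and 3 lower (median 0.11), and Nramp transporters 4 of 7 higher and 2 lower (median 0.35). Ferritins had 3 of 3 lower (median -0.34), metallothioneins 4 of 5 lower and 1 higher (median -0.56), and YSL transporters 5 of 10 lower and 2 higher (median -0.62). Metal tolerance proteins had 3 of 12 lower and 2 higher (median -0.09). On FPKM every one of these negative medians turned positive, to 0.40 for ferritins, 0.17 for metallothioneins, 0.07 for YSL transporters and 0.47 for metal tolerance proteins, beside 0.47 for all loci. The added 1 shrinks the median of all loci, so a family median near 0.47 does not mean no difference.

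**Figure D2:**
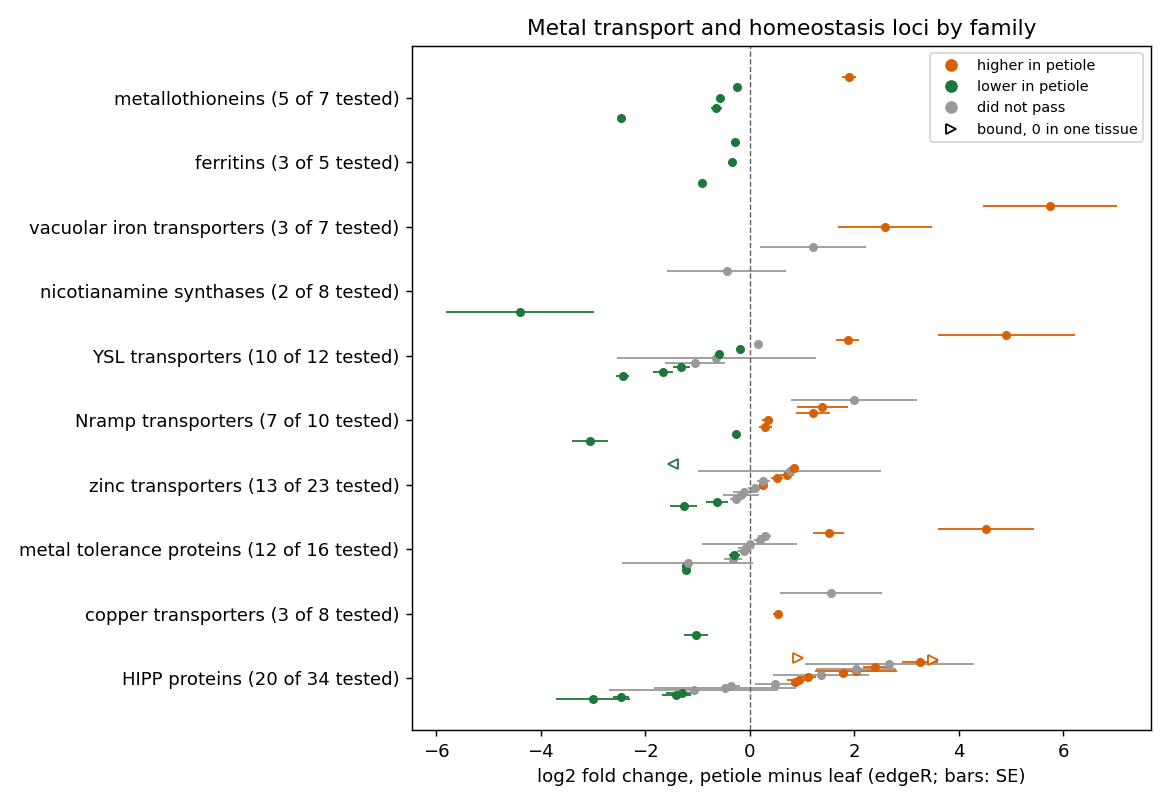
Each point is a tested locus with its log2 fold change, petiole minus leaf, from edgeR, and a bar of 1 standard error, by family. Orange points were higher and green ones lower in petiole, grey ones did not pass, and open triangles are bounds for loci at 0 in all libraries of a tissue. All 3 ferritins lie left of 0, and the HIPP family has 9 loci called higher and 4 called lower. Points with long bars are loci with few counts.

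Metallothioneins are small cysteine-rich proteins that bind copper and zinc. They were the most abundant family, with a summed FPKM of 1284 ± 73.5 in petiole and 1287 ± 56.4 in leaf (SD, n = 3 each), and their summed CPM was 334 ± 17.7 in petiole and 551 ± 19.1 in leaf. Coordinates throughout are those of the deposited table, whose genome build is not given in the sources used here. MSTRG.3083, annotated only as a metallothionein protein (chromosome A02, 310923 to 311326, minus strand), had 41.8, 39.8 and 38.4 CPM in petiole, against 222, 227 and 209 CPM in leaf. It was 5.48-fold lower in petiole (log2 fold change -2.45, SE 0.0512, edgeR adjusted p = 5.79e-11), the lowest p among the metal-handling loci. It was lower on FPKM as well, at 159 in petiole and 522 in leaf. MSTRG.6044, a type 2 metallothionein annotated MT2-22 (A03, 282720 to 283435), had 47.4, 43.1 and 37.7 CPM in petiole, against 9.85, 10.7 and 13.6 CPM in leaf. Here every petiole library lay above every leaf library, and the locus was 3.75-fold higher in petiole (log2 fold change 1.91, SE 0.133, edgeR adjusted p = 1.4e-06).

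The other metallothioneins differed less. The most abundant in petiole, type 2 metallothionein MSTRG.14964 (A05, 25651546 to 25651891), had 182, 185 and 165 CPM in petiole, against 212, 221 and 199 CPM in leaf (log2 fold change -0.25, SE 0.0548, edgeR adjusted p = 0.00255). MSTRG.30860, annotated MT2-4/MT2-25 (A10, 20501840 to 20502235), had 61.0, 58.5 and 58.8 CPM in petiole, against 85.4, 89.3 and 88.6 CPM in leaf (log2 fold change -0.56, SE 0.046, edgeR adjusted p = 1.69e-06). MSTRG.14562, metallothionein-like protein 3 (A05, 23177770 to 23178411), had 12.9, 16.0 and 13.3 CPM in petiole, against 20.7, 22.5 and 22.4 CPM in leaf (log2 fold change -0.63, SE 0.101, edgeR adjusted p = 0.000279). In none of these 3 loci did the tissues overlap, but each had a positive sign on FPKM (0.49, 0.17 and 0.10 in that order), and MSTRG.14964 did not pass on TPM. The other 2 annotated metallothioneins were not tested: BraA03g025940.3C (protein 4B) had counts in 1 leaf library only, and BraA03g033840.3C (type 2) was at 0 in all libraries.

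**Figure D3:**
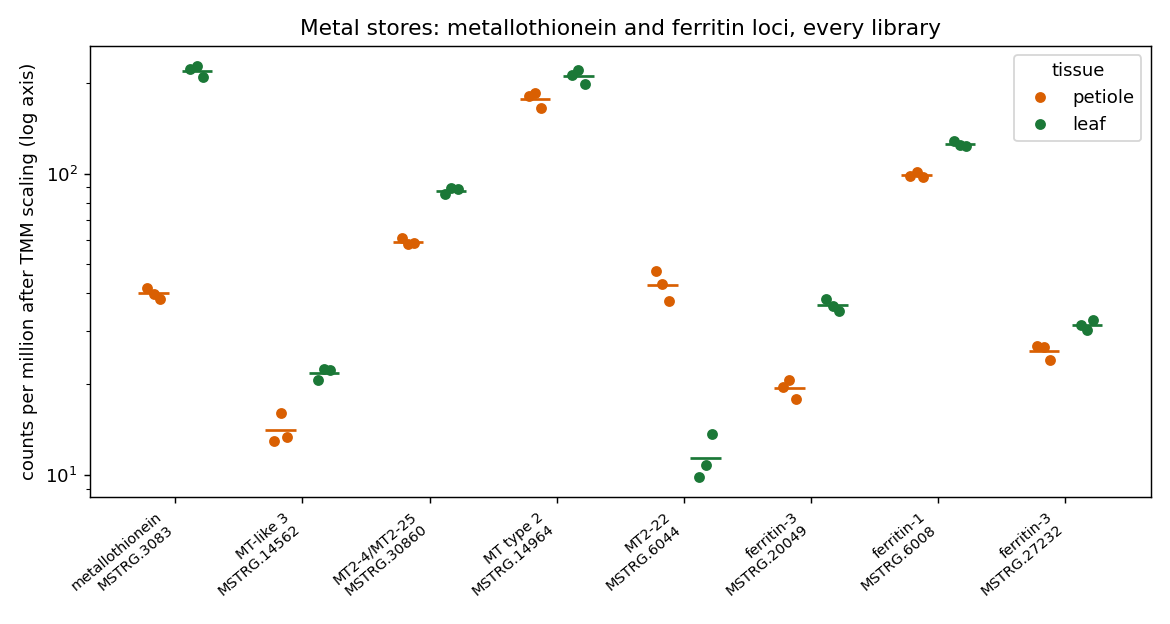
The vertical axis gives CPM after TMM scaling (log axis) for the 5 tested metallothioneins and 3 tested ferritins. Points are libraries, petiole left of leaf, and lines are means of 3. The tissues lie farthest apart at MSTRG.3083, lower in petiole, and at MSTRG.6044, higher in petiole.

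The make-up of the metallothionein pool, which does not depend on how libraries are scaled to each other, differed accordingly. MSTRG.3083 made up 12.5, 12.0 and 12.6% of the metallothionein FPKM in petiole libraries, against 41.0, 40.5 and 40.02% in leaf libraries. MSTRG.14964 made up 54.9, 56.6 and 54.9% in petiole, against 39.7, 39.9 and 38.6% in leaf. The share of MSTRG.6044 was 11.6% ± 0.781 in petiole and 1.87% ± 0.379 in leaf (SD, n = 3 each), while MSTRG.30860 held 18.6% ± 0.89 in petiole and 16.4% ± 0.658 in leaf. So the leading metallothionein was MSTRG.14964 in petiole, and in leaf MSTRG.3083 and MSTRG.14964 had near-equal shares. How the authors' counting shared reads among similar metallothionein sequences is not given in the sources used here, which leaves the split between these loci uncertain.

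**Figure D4:**
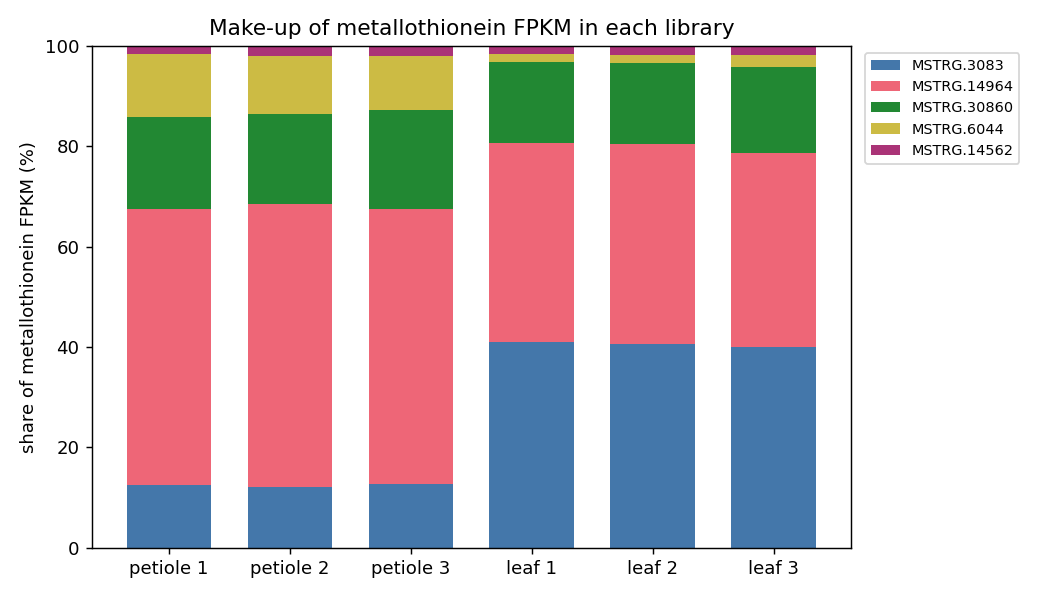
Share of the summed metallothionein FPKM taken by each locus, in percent, for each petiole library (left) and each leaf library (right). MSTRG.3083 takes 12.0 to 12.6% in petiole libraries and 40.02 to 41.0% in leaf libraries.

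Ferritins store iron inside plastids. All 3 tested ferritins, each annotated as chloroplastic, were lower in petiole by edgeR and also by DESeq2. Ferritin-1 MSTRG.6008 (A03, 57309 to 58725), the most abundant in both tissues, had 98.6, 100.97 and 97.7 CPM in petiole, against 128, 124 and 124 CPM in leaf (log2 fold change -0.34, SE 0.0404, edgeR adjusted p = 3.22e-05). Ferritin-3 MSTRG.20049 (A07, 17977031 to 17978641) had 19.6, 20.7 and 17.9 CPM in petiole, against 38.2, 36.4 and 35.0 CPM in leaf, and was 1.88-fold lower in petiole (log2 fold change -0.91, SE 0.0771, edgeR adjusted p = 2.19e-06). A second ferritin-3 locus, MSTRG.27232 (A09, 35581334 to 35582810), had 26.7, 26.5 and 24.1 CPM in petiole, against 31.5, 30.3 and 32.7 CPM in leaf (log2 fold change -0.29, SE 0.0706, edgeR adjusted p = 0.0048). The tissues did not overlap at any of them, though the differences of MSTRG.6008 and MSTRG.27232 were modest, and both turned positive on FPKM (0.40 and 0.43). MSTRG.20049 stayed negative there (-0.17) without passing. The annotated ferritin-2 had counts in 1 leaf library only, and a locus annotated ferritin-3-like was at 0 in all libraries.

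Nicotianamine synthases make nicotianamine, the chelator that accompanies iron, copper and zinc in the phloem. Their transcripts were close to the floor in both tissues. Of 8 annotated loci, 5 were at 0 in every library, among them all 4 annotated as nicotianamine synthase 1 or 1-like, and 2 were tested. Nicotianamine synthase 3 (BraA06g006140.3C) had 0, 0.0774 and 0 CPM in petiole, against 0.402, 0.644 and 0.64 CPM in leaf (edgeR adjusted p = 0.0204). The floor of 3 fragments corresponds to 0.0795 to 0.0897 CPM in petiole libraries, so all petiole values were at or under that floor, and the call was lost without leaf replicate 2 or leaf replicate 3. Nicotianamine synthase 4 (BraA01g026140.3C) had 0.119, 0.0282 and 0.194 CPM in petiole and 0.265, 0.103 and 0.0969 CPM in leaf, values that overlapped and did not pass (edgeR adjusted p = 0.757).

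YSL proteins, named after maize yellow stripe 1, carry metal-nicotianamine complexes across membranes. Of the 10 tested, 5 were lower in petiole and 2 were higher. YSL6 MSTRG.24362 (A09, 1958990 to 1961906) had 5.62, 7.52 and 5.42 CPM in petiole, against 35.0, 32.3 and 32.8 CPM in leaf, and was 5.39-fold lower in petiole (log2 fold change -2.43, SE 0.127, edgeR adjusted p = 5.09e-08). Its share of the YSL FPKM was 5.5% ± 0.949 in petiole and 21.1% ± 0.512 in leaf (SD, n = 3 each). YSL3 MSTRG.29363 (A10, 9823429 to 9828494), which in Arabidopsis acts in veins and in the remobilisation of metals, was the most abundant YSL locus in leaf by FPKM. It had 57.7, 53.4 and 55.9 CPM in petiole, against 83.8, 82.2 and 86.1 CPM in leaf (log2 fold change -0.59, SE 0.0494, edgeR adjusted p = 1.96e-06), with a positive sign on FPKM (0.13). YSL5 MSTRG.8697, the most abundant in petiole by FPKM, had 36.9, 36.0 and 36.7 CPM in petiole, against 43.6, 39.4 and 42.0 CPM in leaf (log2 fold change -0.19, SE 0.0596, edgeR adjusted p = 0.0178). That small difference turned positive on FPKM (0.51) and did not pass on TPM, with upper-quartile factors, without petiole replicate 2 or without leaf replicate 1.

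Other YSL loci are named here after their values were seen. YSL8 MSTRG.21920 had 5.83, 4.48 and 4.94 CPM in petiole, against 1.17, 1.25 and 1.74 CPM in leaf (log2 fold change 1.88, edgeR adjusted p = 3.4e-05). YSL2 MSTRG.17647 had 1.98, 3.30 and 2.50 CPM in petiole, while leaf had counts in 1 library only, at 0.252 CPM (edgeR adjusted p = 0.0189, a call lost without petiole replicate 2). YSL1 MSTRG.1096 and YSL7 MSTRG.20747 were lower in petiole, with log2 fold changes of -1.30 and -1.66 and edgeR adjusted p-values of 4.21e-05 and 3.35e-05. YSL1, YSL3, YSL6, YSL7 and the YSL5 locus MSTRG.8697 were thus lower in petiole by edgeR, and YSL2 and YSL8 higher. The second YSL5 locus, MSTRG.2375, had 30.8, 31.5 and 27.3 CPM in petiole and 27.0, 26.6 and 26.7 CPM in leaf and did not pass (edgeR adjusted p = 0.084), and the third, BraA03g038070.3C, lay 21681 bases from MSTRG.8697 and was at 0 in all libraries.

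Vacuolar iron transporters load iron into the vacuole. Both loci annotated as vacuolar iron transporter 1 or 1-like were at 0 in every library, and the 3 tested loci were homologs. Homolog 1 MSTRG.19542 had 0.55, 0.929 and 0.763 CPM in petiole, against 0.0392, 0.289 and 0.0388 CPM in leaf (log2 fold change 2.60, SE 0.904, edgeR adjusted p = 0.0284). Its petiole libraries all lay above its leaf libraries, but the call was lost in 4 of the 6 fits without a single library: petiole replicate 2 or 3, or leaf replicate 1 or 3. Homolog 2.1 MSTRG.8930, named after its values were seen, had 0.57, 0.5 and 0.658 CPM in petiole, while leaf libraries were at 0.0294, 0 and 0 CPM, under the floor of 0.112 to 0.118 CPM (edgeR adjusted p = 0.00263). The family had 0 loci lower in petiole, also by DESeq2 and at an unadjusted p under 0.05 in edgeR. Summed over the 7 loci the family reached 1.92 ± 0.15 CPM in petiole and 0.23 ± 0.09 CPM in leaf (SD, n = 3 each), far below the ferritins.

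Nramp proteins move manganese, iron and related ions. Nramp1, a manganese importer of the plasma membrane in Arabidopsis, had the largest difference of the family. MSTRG.4832 (A02, 15356148 to 15359006) had 2.33, 1.10 and 0.995 CPM in petiole, against 13.7, 10.3 and 12.9 CPM in leaf, and was 8.30-fold lower in petiole (log2 fold change -3.05, SE 0.339, edgeR adjusted p = 0.000109). It was chosen after its values were seen, since it missed the abundance set for named loci, a mean of 5 FPKM in the higher tissue, by its leaf FPKM of 4.22. Nramp4 MSTRG.19638 (A07, 14540267 to 14542255), which in Arabidopsis releases iron from the vacuole together with Nramp3, was the most abundant of the family in both tissues. It had 27.9, 30.1 and 27.2 CPM in petiole, against 34.1, 33.9 and 33.5 CPM in leaf (log2 fold change -0.25, SE 0.0653, edgeR adjusted p = 0.00628), with a positive sign on FPKM (0.45) and no call on TPM. This locus lies entirely, over 1989 bases, within an uncharacterised locus on the same strand, so its reads could belong to either.

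Nramp3 showed the other direction. MSTRG.7851 (A03, 12731112 to 12733030) had 17.5, 17.2 and 19.7 CPM in petiole, against 14.5, 15.4 and 12.9 CPM in leaf (log2 fold change 0.35, SE 0.1, edgeR adjusted p = 0.0119), a call lost without petiole replicate 3. The second Nramp3 locus, MSTRG.27786, named after its values were seen, was also higher in petiole, at a log2 fold change of 1.21 (edgeR adjusted p = 0.00815). Nramp2 MSTRG.21984, whose Arabidopsis counterpart handles manganese at the Golgi, had 22.2, 20.0 and 18.8 CPM in petiole, against 17.1, 18.5 and 13.8 CPM in leaf (log2 fold change 0.30, SE 0.117, edgeR adjusted p = 0.0445). The gap between its lowest petiole and highest leaf library was small, and the call was lost on TPM (limma adjusted p = 0.05001) and in 4 fits, without petiole replicate 1 or 2 or leaf replicate 1 or 3. Its Nramp2-like relative MSTRG.29117, named after its values were seen, was higher in petiole too (log2 fold change 1.39, edgeR adjusted p = 0.0286), a call lost in the same 4 fits.

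Zinc transporters here are mostly ZIP proteins, which bring zinc and other divalent metals into the cytosol. Of 23 annotated loci 13 were tested, 4 were higher in petiole, 3 were lower and 9 were at 0 in all libraries. The annotation At3g08650, a zinc transporter named by its Arabidopsis gene, was held by 3 loci. MSTRG.15012 (A05, 25890687 to 25894245) had 26.8, 23.9 and 26.5 CPM in petiole, against 13.0, 15.5 and 14.4 CPM in leaf, and was 1.80-fold higher in petiole (log2 fold change 0.85, SE 0.0928, edgeR adjusted p = 1.7e-05). MSTRG.8478, the most abundant zinc transporter in petiole by FPKM, had 30.8, 28.9 and 32.0 CPM in petiole, against 25.8, 24.9 and 26.2 CPM in leaf (log2 fold change 0.26, SE 0.0684, edgeR adjusted p = 0.00748). The third locus, MSTRG.2789, had 1.59, 4.38 and 3.99 CPM in petiole and 3.30, 4.14 and 3.72 CPM in leaf and did not pass. These loci of a single annotation thus ranged from a clear difference to overlapping libraries.

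Other zinc transporters were called in both directions. Zinc transporter 11 MSTRG.21662 had 8.85, 7.97 and 7.91 CPM in petiole, against 5.05, 5.33 and 4.68 CPM in leaf (log2 fold change 0.72, SE 0.13, edgeR adjusted p = 0.000713). Zinc transporter 4, annotated as chloroplastic (MSTRG.28340), had 11.9, 13.1 and 10.5 CPM in petiole, against 8.58, 7.75 and 8.35 CPM in leaf (log2 fold change 0.52, SE 0.117, edgeR adjusted p = 0.00278). ZTP29 MSTRG.14177, the most abundant zinc transporter in leaf by FPKM, overlapped between the tissues at 12.1, 11.1 and 11.0 CPM in petiole and 11.9, 8.63 and 11.1 CPM in leaf (edgeR adjusted p = 0.495). The 3 loci lower in petiole are named after their values were seen. Zinc transporter 6, annotated as chloroplastic (MSTRG.13522), had 1.48, 2.40 and 1.34 CPM in petiole, against 3.91, 3.90 and 4.72 CPM in leaf (log2 fold change -1.26, SE 0.257, edgeR adjusted p = 0.00147). Zinc transporter 5 MSTRG.28945 was lower by a log2 fold change of -0.62 (edgeR adjusted p = 0.0277), a call lost without petiole replicate 1 or 2 or leaf replicate 2 or 3 and with a positive sign on FPKM (0.10). Its neighbour 6921 bases away, also annotated zinc transporter 5, was at 0 in all libraries. Zinc transporter 9 BraA01g004970.3C was at 0 in all petiole libraries and at 0.226, 0.317 and 0.155 CPM in leaf, which made it at least 2.75-fold lower in petiole against the floor of 3 fragments per library (edgeR adjusted p = 0.00542).

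Metal tolerance proteins (MTP) export metals from the cytosol, zinc into the vacuole in the case of MTP1. The family's most abundant locus in both tissues, MTP1-like MSTRG.12527 (A04, 21772390 to 21778465), had 73.5, 70.5 and 72.6 CPM in petiole, against 171, 167 and 168 CPM in leaf. It was 2.34-fold lower in petiole (log2 fold change -1.22, SE 0.0401, edgeR adjusted p = 1.39e-09), also on FPKM (-0.46), and made up 19.7% ± 0.6 of the family's FPKM in petiole and 32.9% ± 1.08 in leaf (SD, n = 3 each). The other MTP1 loci overlapped between the tissues: MSTRG.7742 had 14.7, 14.0 and 16.3 CPM in petiole and 12.2, 12.0 and 15.0 CPM in leaf (edgeR adjusted p = 0.154). MSTRG.12613 had 13.1, 14.8 and 18.1 CPM in petiole and 15.2, 15.5 and 19.0 CPM in leaf (edgeR adjusted p = 0.485). The C4-like locus MSTRG.15597 had 18.2, 16.5 and 18.0 CPM in petiole, against 39.6, 39.8 and 43.4 CPM in leaf (log2 fold change -1.22, SE 0.0728, edgeR adjusted p = 1.44e-07).

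MTP11, a manganese carrier in Arabidopsis, gave no stable call. MTP11-like MSTRG.12211 had 14.1, 15.8 and 15.6 CPM in petiole, against 21.1, 16.8 and 18.1 CPM in leaf (log2 fold change -0.30, SE 0.104, edgeR adjusted p = 0.0297). It did not pass with upper-quartile factors, on TPM, without petiole replicate 1 or 3 or without leaf replicate 1, and turned positive on FPKM (0.41). MTP11 MSTRG.13009 did not pass (log2 fold change 0.29, edgeR adjusted p = 0.067). The 2 loci higher in petiole, named after their values were seen, were MTP10 MSTRG.16301, with 4.36, 4.41 and 5.48 CPM in petiole, against 1.22, 1.27 and 2.51 CPM in leaf (log2 fold change 1.51, edgeR adjusted p = 0.00107), and a locus annotated C3. The C3 locus, BraA09g048620.3C, had 0.748, 1.49 and 1.40 CPM in petiole, against 0.0981, 0 and 0.0582 CPM in leaf, all under the leaf floor (edgeR adjusted p = 0.0015).

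Copper transporters of the COPT family carry copper into the cytosol. Of 8 annotated loci, 4 were at 0 in all libraries and 3 were tested. COPT5 MSTRG.29901 (A10, 14595700 to 14596134), which in Arabidopsis exports copper from the vacuole, held 94.2% ± 1.27 of the family's FPKM in petiole and 85.8% ± 1.32 in leaf (SD, n = 3 each). It had 37.3, 33.9 and 33.2 CPM in petiole, against 24.0, 26.2 and 21.8 CPM in leaf, and was 1.45-fold higher in petiole (log2 fold change 0.54, SE 0.0846, edgeR adjusted p = 0.000264). The COPT1-like locus MSTRG.3806, related to the plasma membrane copper importer of Arabidopsis, had 2.26, 1.52 and 2.64 CPM in petiole, against 3.92, 4.92 and 4.22 CPM in leaf (log2 fold change -1.02, SE 0.236, edgeR adjusted p = 0.00329). On FPKM this locus kept its sign (-0.26) and did not pass.

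**Figure D5:**
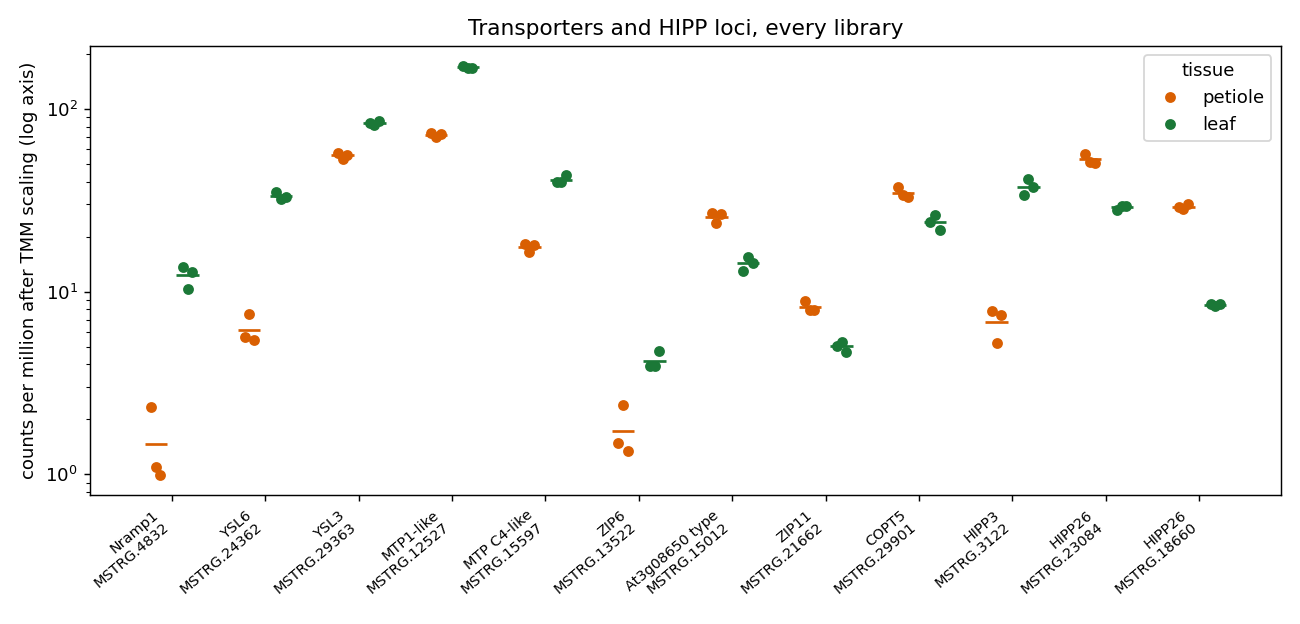
The vertical axis gives CPM after TMM scaling (log axis) for transporter and HIPP loci discussed in the text. Points are libraries, petiole left of leaf, and lines are means of 3. Nramp1, YSL6, YSL3, both metal tolerance proteins, zinc transporter 6 and HIPP3 lie lower in petiole, and the At3g08650 type, zinc transporter 11, COPT5 and both HIPP26 loci lie higher, with no overlap between the tissues.

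HIPP proteins pair a metal-binding domain with a lipid anchor, and they were the largest family, with 34 loci. Their summed FPKM was 217 ± 9.67 in petiole and 79.3 ± 1.65 in leaf, and their summed CPM 135 ± 6.41 in petiole and 109 ± 3.01 in leaf (SD, n = 3 each). HIPP26 locus MSTRG.23084 (A08, 17061562 to 17062747) had 56.9, 51.1 and 50.9 CPM in petiole, against 27.9, 29.3 and 29.4 CPM in leaf, and was the most abundant HIPP locus by FPKM in both tissues and 1.83-fold higher in petiole (SE 0.0639 on the log2 scale, edgeR adjusted p = 7.04e-07). The second HIPP26 locus, MSTRG.18660 (A06, 29054249 to 29055201), had 28.9, 28.5 and 30.1 CPM in petiole, against 8.54, 8.30 and 8.56 CPM in leaf, and was 3.44-fold higher in petiole (log2 fold change 1.78, SE 0.0786, edgeR adjusted p = 1.31e-08). Libraries of a tissue lay close together at both loci. MSTRG.23084 and MSTRG.18660 made up 51.6% ± 1.48 and 28.5% ± 1.77 of the HIPP FPKM in petiole and 46.2% ± 1.07 and 13.5% ± 0.264 in leaf (SD, n = 3 each). The other HIPP calls outside HIPP3 are named after their values were seen. They were MSTRG.16699 (HIPP20), higher in petiole at a log2 fold change of 2.04 (edgeR adjusted p = 0.0445, lost in 4 of the 6 fits without a library), and MSTRG.30100 (HIPP21), lower at -1.41 (edgeR adjusted p = 0.00123). A HIPP26-like locus, MSTRG.3542, annotated from Brassica oleracea, was lower in petiole at 0.391, 0.0563 and 0.112 CPM, against 1.501, 0.886 and 2.10 CPM in leaf (edgeR adjusted p = 0.00399).

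HIPP3 was the annotation with most loci, 16, of which 12 were tested, 6 were higher in petiole and 2 were lower. MSTRG.3122 (A02, 482948 to 485034) had 7.80, 5.24 and 7.43 CPM in petiole, against 33.8, 41.2 and 37.5 CPM in leaf, and was 5.50-fold lower in petiole (log2 fold change -2.46, SE 0.154, edgeR adjusted p = 8.72e-07). The other HIPP3 loci with calls are named after their values were seen. MSTRG.5756 had 7.74, 7.63 and 5.34 CPM in petiole, against 1.11, 1.14 and 1.65 CPM in leaf (log2 fold change 2.41, SE 0.234, edgeR adjusted p = 6.51e-06). MSTRG.19974 had 4.33, 4.07 and 3.83 CPM in petiole, against 0.549, 0.513 and 0.213 CPM in leaf (log2 fold change 3.26, edgeR adjusted p = 1.34e-05), and overlaps a locus on the other strand by 135 bases. MSTRG.17662 had 0.98, 1.71 and 1.24 CPM in petiole and was at 0 in all leaf libraries, at least 11.4-fold higher in petiole (edgeR adjusted p = 3.07e-05). Loci annotated HIPP3 or HIPP3-like thus had calls in both directions. MSTRG.13134, MSTRG.12106 and MSTRG.17757 were also higher in petiole. The last had only 0.166, 0.317 and 0.172 CPM in petiole, close to the floor of 3 fragments. It was at 0 in all leaf libraries, so its difference is bounded only at 1.89-fold or more. MSTRG.29801 was lower (log2 fold change -1.29, edgeR adjusted p = 0.00421), with the same sign on FPKM and no call there. Whether reads were shared among these loci by the authors' counting is not given in the sources used here.

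Gene copies are common in Brassica rapa, whose genome was triplicated after the split from Arabidopsis. Loci that share an annotation varied beyond the HIPP family, but no sequences were compared, so they may not be copies of a single gene. Leaving out tags such as -like, probable or isoform, 31 annotations were held by more than 1 locus, and 14 had more than 1 tested locus. Of these, 2, HIPP3 and HIPP26, had calls in both directions. For HIPP26 the lower call came only from the HIPP26-like locus MSTRG.3542. For 13 annotations at least 1 locus was tested while at least 1 was at 0 in all libraries. Loci of the same family lay within 50000 bases of each other in 4 pairs, and in each pair at least 1 locus was not tested.

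Other metal-handling genes, grouped by description outside the 130 loci, give the surroundings of these differences. The counts of each list stand beside 62.6% of all tested loci called, 31.5% higher and 31.1% lower in petiole. Iron reduction and uptake had 6 of 7 tested loci lower in petiole and 1 higher (median log2 fold change -1.61). The chloroplast ferric reductase FRO7 (MSTRG.29181), which reduces iron for uptake into the plastid, had 12.4, 11.1 and 14.5 CPM in petiole, against 60.2, 52.7 and 58.0 CPM in leaf (log2 fold change -2.17, edgeR adjusted p = 2.23e-08). The locus higher in petiole, named after its values were seen, was FRO8 (MSTRG.26315), annotated as mitochondrial, with 80.8, 79.9 and 75.2 CPM in petiole, against 33.3, 34.9 and 38.7 CPM in leaf (log2 fold change 1.14, edgeR adjusted p = 9.81e-08). Both held their sign on FPKM. A ferric reductase annotated FRO2 (MSTRG.28660), in Arabidopsis the reductase of the root surface, was also named after its values were seen. It had 0.0729, 0.303 and 0.0748 CPM in petiole, against 17.1, 13.2 and 13.5 CPM in leaf (log2 fold change -6.59, edgeR adjusted p = 2.46e-05). Petiole replicates 1 and 3 lay under their floors of 0.0795 and 0.0897 CPM, so the size of this fold is uncertain.

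Iron-sulfur cluster assembly had 10 of 15 tested loci lower in petiole and 0 higher (median -0.57), with 0 higher by DESeq2 and 2 higher at an unadjusted p under 0.05 in edgeR. With upper-quartile factors, on TPM and without leaf replicate 3, 2 loci were called higher, and on FPKM 6 were higher and 4 lower. Its named locus, the chloroplast scaffold nifU-like protein 2 (MSTRG.7872), had 3.21, 2.44 and 3.99 CPM in petiole, against 11.5, 9.28 and 7.14 CPM in leaf (log2 fold change -1.54, edgeR adjusted p = 0.000157). Of 7 tested iron regulators, 3 were lower in petiole and 1 was higher (median -0.33). The bHLH47-like factor MSTRG.17087, whose Arabidopsis counterpart POPEYE restrains iron-deficiency genes, had 11.9, 13.0 and 9.59 CPM in petiole, against 31.7, 30.1 and 32.7 CPM in leaf (log2 fold change -1.46, edgeR adjusted p = 9.85e-07). Of the 3 tested loci for iron export, citrate and oligopeptide transport, 2 were lower and 1 was higher, and solute carrier family 40 member 3, annotated as chloroplastic (MSTRG.5690), was lower at a log2 fold change of -1.25 (edgeR adjusted p = 3.26e-07).

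For copper, P1B-type ATPases, the pumps that drive copper, zinc and cadmium across membranes, had 6 of 15 tested loci higher and 6 lower in petiole (median 0.10). PAA1-like MSTRG.22651, a pump of the chloroplast envelope, had 2.58, 4.24 and 4.04 CPM in petiole, against 13.3, 11.6 and 12.0 CPM in leaf (log2 fold change -1.77, edgeR adjusted p = 1.26e-05). RAN1 (MSTRG.18511), which in Arabidopsis supplies copper to ethylene receptors and is named after its values were seen, was higher in petiole at a log2 fold change of 0.64 (edgeR adjusted p = 3.83e-07). Copper chaperones had 1 of 7 higher and 2 lower. The CCH-like chaperone MSTRG.10688 had 13.3, 18.6 and 12.8 CPM in petiole, against 0.824, 1.48 and 1.52 CPM in leaf (log2 fold change 3.55, edgeR adjusted p = 2.3e-06). Proteins that hold metals in their active site (plastocyanins, blue copper proteins and superoxide dismutases) had 9 of 16 tested loci lower and 5 higher (median -0.74). Plastocyanin-like MSTRG.16551, a copper protein of the photosynthetic chain, had 0.384, 0.83 and 0.98 CPM in petiole, against 70.1, 74.4 and 71.3 CPM in leaf (log2 fold change -6.63, edgeR adjusted p = 1.66e-05). Like 25 of the 26 tested mesophyll marker loci (median log2 fold change -3.72), it was lower in petiole. The part of the mesophyll in its difference was not tested.

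Chelation and cadmium resistance had 3 of 6 tested loci higher in petiole and 3 lower. A PLANT CADMIUM RESISTANCE 2-like locus (MSTRG.28114), related to a zinc exporter of Arabidopsis, had 24.6, 26.5 and 30.0 CPM in petiole, against 4.24, 4.10 and 3.65 CPM in leaf (log2 fold change 2.76, edgeR adjusted p = 7.3e-09). Magnesium transporters had 2 of 17 tested loci higher and 5 lower in petiole, and NIPA1 MSTRG.19170 had 2.56, 1.91 and 2.17 CPM in petiole, against 13.9, 14.4 and 14.3 CPM in leaf (log2 fold change -2.68, edgeR adjusted p = 5.53e-08). On FPKM the split of the magnesium transporters turned to 12 higher and 1 lower.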

How the data were processed

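RNA-seq of 3 petiole and 3 leaf libraries was analysed from the deposited table of 49200 loci. Per the labels' protocols, the libraries were strand-specific and made from Trizol-extracted RNA depleted of ribosomal RNA. Bowtie 0.12.2 and mm8, a mouse build, stand in the submitters' processing notes with no role. Which aligner, counter, strand setting and genome build served the plant reads is not given in the sources used here.

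Estimated counts, as deposited, were whole, so that rounding changed nothing, but about 3.76 units (3.64 to 3.79 over the libraries) stood for 1 fragment. The floor was 3 fragments, or 12 units, per library. It and folds against it reflect counting error alone. The deposited FPKM, scaled by the authors to length and depth, were proportional to the counts within a locus and stood at 0.0001 where the count was 0. Loci without a gene name held 6.37% of the units in petiole and 5.32% in leaf and stayed in the tests.

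Petiole was compared with leaf by edgeR 4.0.16 in R 4.3.3 (quasi-likelihood test, robust, filterByExpr, tissue alone, TMM factors 1.09 to 1.14 in petiole and 0.885 to 0.925 in leaf). P-values were two-sided and adjusted by Benjamini-Hochberg over 31473 loci. SE is the log2 fold change divided by the root of F. The coefficient of variation from edgeR's common dispersion, which edgeR terms biological, was 26.5% and may be partly or wholly technical. Tested on simulated counts over the same 31473 loci, edgeR recovered 26% of loci changed 1.5-fold, 56% at 2-fold, 82% at 4-fold and 94% at 8-fold (50 loci each). Only these loci were changed, and all were drawn from loci with higher counts, whereas 62.6% of tested loci were called in the real data. Recovery in the real comparison, and at loci with few counts, may therefore differ.

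The alternatives were DESeq2 1.42.0, upper-quartile factors, no filter on low counts, counts divided by the units per fragment, limma 3.58.1 on log2(FPKM + 1) and log2(FPKM + 0.1), a minimum mean of 1 FPKM, the replicate block, leaving out each library, leaving out loci that overlap others, a 2-fold minimum and, added after seeing the data, limma on log2(TPM + 1).

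Named loci were, per family, up to 3 with the largest called and non-overlapping change at a mean of at least 5 FPKM in the higher tissue, the most abundant locus in each tissue, every tested ferritin, metallothionein and nicotianamine synthase, and the largest change of each other list. All other loci in the text were chosen after their values were seen. The loci and lists were chosen with earlier results of these data known.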

Additional observations from a re-analysis of the deposited data

How the results depend on the processing

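The scale was the setting that moved most results. With limma on log2(FPKM + 1), 18478 loci were higher and 5078 lower in petiole; with log2(FPKM + 0.1) the counts were 18503 and 5078, and with a mean of at least 1 FPKM 15791 and 3964. Metal-handling loci came to 49 higher and 11 lower with log2(FPKM + 1), and 49 and 12 with log2(FPKM + 0.1). With the FPKM minimum, 55 of them were tested, 36 higher and 11 lower. By family, these FPKM settings gave 1 Nramp locus lower; 4 YSL loci higher (not counting the FPKM minimum) and 3 lower; 2 copper transporters higher (again not counting it) and 0 lower; 2 ferritins higher and 0 lower, or 1 lower with the minimum; 8 metal tolerance proteins higher, or 7 with the minimum; 3 metallothioneins higher and 1 lower; and 8 zinc transporters higher and 0 lower, or 1 lower with log2(FPKM + 0.1). For the other lists they gave 3 copper chaperones higher, 2 loci of iron export, citrate and oligopeptide transport higher and 1 lower, 3 iron regulators higher, 6 iron-sulfur assembly loci higher and 4 lower, and 12 magnesium transporters higher and 1 lower. The FPKM minimum, which leaves fewer loci, also gave 0 nicotianamine synthases lower, 0 vacuolar iron transporters higher, 2 P1B-type ATPases lower, 0 loci of chelation and cadmium resistance lower, and 2 iron regulators higher and 1 lower. Among loci named by the rule 9 changed sign on FPKM. At loci with over 100 units in every library, FPKM were proportional to the counts within a locus. The median SD of log2(count/FPKM) was 0.0005 there after library medians. These sign changes thus followed a scale set per library and shared by all loci. With log2(FPKM + 1), with or without the minimum, and log2(FPKM + 0.1), the differences were 0.10 and 0.10 for MSTRG.14562, 0.49 and 0.49 for MSTRG.14964, 0.17 and 0.18 for MSTRG.30860, 0.40 and 0.40 for MSTRG.6008, 0.43 and 0.45 for MSTRG.27232, 0.51 and 0.55 for MSTRG.8697, 0.13 and 0.14 for MSTRG.29363, 0.45 and 0.48 for MSTRG.19638, and 0.41 and 0.44 for MSTRG.12211.

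Whether the replicate numbers pair the samples is not known, as the labels name no shared plant. Same-numbered petiole and leaf libraries deviated from their tissue means with correlations of -0.01 to 0.01. These values cannot decide it, since the spread within a tissue may be technical. With the replicate block, 9338 loci were higher and 9345 lower in petiole, 24 and 24 among metal-handling loci, the magnesium transporters had 3 lower, and of the loci named by the rule MSTRG.12211 no longer passed. Among loci chosen after their values were seen, MSTRG.29117, MSTRG.28945, BraA01g004970.3C and MSTRG.17757 also no longer passed with the block. Limma on log2(TPM + 1), chosen after seeing the data, gave 1 Nramp locus lower, 2 copper transporters, 4 metal tolerance proteins, 2 iron-sulfur assembly loci and 5 magnesium transporters higher. Upper-quartile factors gave 2 iron-sulfur assembly loci and 5 magnesium transporters higher. Requiring a 2-fold difference left 16 metal-handling loci higher and 15 lower. Leaving out each library in turn gave 20 to 27 metal-handling loci higher and 24 to 26 lower, 2 to 4 Nramp loci higher, 1 to 3 YSL loci higher, 0 to 1 nicotianamine synthases lower, 1 to 3 vacuolar iron transporters higher, 0 to 2 iron-sulfur assembly loci higher and 3 to 5 magnesium transporters lower. DESeq2, no filter and counts divided by the units per fragment kept the direction and call of every locus named by the rule that they tested, and moved no count by over 1.5 times. Why the FPKM scale differed between the tissues, and the cause of the other changes, was not tested. Loci under about 0.1 CPM lie at the floor of 3 fragments, and differences there were not detectable at this depth.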
